A study of Mus musculus with 6 samples.

Results

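The genes described here carry the names of axonemal dynein chains, radial spoke proteins, tektins and sperm-associated antigens (Spag), proteins that for the most part build the moving core of the sperm tail. They were chosen by name alone: every array probe whose gene name begins with Dnah (the older Dnahc names included), Dnai, Dnal, Rsph, Rshl, Tekt or Spag. The rule took 70 probes for 42 genes, of 34741 genes on the array, and the Spag prefix also brought in genes that are not parts of the tail core. RNA came from whole testes of B6.MRLc1 mice (3 arrays) and of C57BL/6 mice, called B6 (3 arrays), all males 3 months old. Every mouse in both groups had a single scrotal heat exposure at 43 °C for 20 min, and the testes were taken 10 days later. The congenic B6.MRLc1 mice have the C57BL/6 background with an MRL segment of chromosome 1, which the labels place at 67.97 to 81.63 cM. A strain difference therefore cannot be assigned to a named gene in that segment. The study's title names calcification inside the heated testis, and the comparison here asks which of these genes differed between the strains at that time. All testes had been heated and none of the values measures an effect of heat.

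The axoneme is the bundle of microtubules that runs through cilia and sperm tails, with doublet microtubules around a central pair. Outer and inner dynein arms on the doublets are motors that slide neighbouring doublets past each other. Radial spokes reach from the doublets to the central apparatus and pass signals that order the beat, and tektins are filament proteins bound along the inner wall of the doublets. In the testis these genes are read mainly in late spermatocytes and spermatids, the cells that build the tail, while the same families serve motile cilia in airway, oviduct and brain ventricles.

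Spots well above background made up 58.0% to 64.7% of each B6.MRLc1 array and 68.6% to 69.0% of each B6 array. The file headers place all 6 arrays on 1 slide and in 1 scan, with B6.MRLc1 in row 2 and B6 in row 1, and the effect of the row cannot be told apart from that of the strain. Markers of the labelled tissue were present: 8 of 8 Sertoli cell markers and 5 of 5 Leydig cell markers were well above background on every array, and 7 to 9 of 9 spermatocyte markers on each. The arrays' numbers were taken as separate mice, as the design text counts 3 of each strain, and p-values measure the spread between these arrays.

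Levels below are log2 processed signal minus the array's 75th percentile, and differences are B6.MRLc1 minus B6 on that log2 scale with the standard error (SE) of the limma fit. A level can be set against another array but not against another gene, because probes differ in how well they bind. Of the 42 genes, 35 had a probe that passed the filter on dim signals and were tested among 25097 genes. Of these 35, 5 fell in B6.MRLc1 testes at an adjusted p under 0.05 and none rose. Of all genes tested, 2.61% were called, 2.23% as lower and 0.387% as higher. The 5 genes were Tekt4 (a tektin), Spag16 and Spag6l (proteins of the central apparatus), Spag4 (a nuclear envelope protein of spermatids) and Spag5 (a protein of the mitotic spindle). No dynein chain and no radial spoke gene passed the test, although several had lower values on all 3 B6.MRLc1 arrays than on any B6 array.

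The levels of the 5 called genes are given array by array. Tekt4, a tektin that mouse sperm need for normal movement, had -2.24, -2.12 and -2.01 on the B6.MRLc1 arrays, against -1.09, -1.09 and -1.27 on the B6 arrays. It fell by 0.97 (SE 0.0894, adjusted p = 0.0192), or 1.96-fold lower. The replicates of each strain lay within a narrow band and the bands were well apart. Spag16, the mouse counterpart of a central pair protein first described in green algae, had -3.93, -3.41 and -3.65 on the B6.MRLc1 arrays, against -2.63, -2.68 and -2.37 on the B6 arrays. It fell by 1.10 (SE 0.155, adjusted p = 0.0342), or 2.15-fold lower. All 3 B6.MRLc1 values lay below the lowest B6 value. Its other probes, above background on no array, gave 0.91, 0.25 and -1.08.

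Spag6l, another central apparatus protein that the array lists as Spag6, had -5.11, -4.80 and -4.86 on the B6.MRLc1 arrays, against -2.30, -3.47 and -2.32 on the B6 arrays. It fell by 2.23 (SE 0.335, adjusted p = 0.0383), or 4.69-fold lower. Its probe was well above background on 2 of 3 B6.MRLc1 arrays and all 3 B6 arrays, and B6 array 2 stood below the other B6 arrays. Spag4, a SUN domain protein of the spermatid nuclear envelope, had -3.23, -3.31 and -2.91 on the B6.MRLc1 arrays, against -1.92, -2.24 and -2.35 on the B6 arrays. It fell by 0.98 (SE 0.155, adjusted p = 0.0423), or 1.97-fold lower, and the groups did not overlap. Spag5, also called astrin, had -0.74, -0.66 and -0.63 on the B6.MRLc1 arrays, against -0.22, -0.29 and -0.19 on the B6 arrays. Its fall of 0.44 (1.36-fold lower, SE 0.0594, adjusted p = 0.0311) was the smallest of the 5, with the tightest replicates.

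These calls rest on all 6 arrays. Same-numbered arrays of both strains shared a slide column, and with that number as a block none of the 5 was called (adjusted p = 0.102 to 0.141). With 1 array left out at a time, between 0 and 3 of the 35 genes were called: none without B6 array 1 or without B6.MRLc1 array 2. Tekt4 was called without B6 array 3 (1 gene) and without B6.MRLc1 array 3 (1 gene). Without B6 array 2 the called genes were Spag6l, Dnah8 and Dnah17 (3 genes), and without B6.MRLc1 array 1 the called gene was Tekt1 (1 gene). The direction of all 5 called genes was the same in these 6 fits, with differences of -1.04 to -0.92 for Tekt4 and -2.62 to -2.03 for Spag6l.

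**Figure D1:**
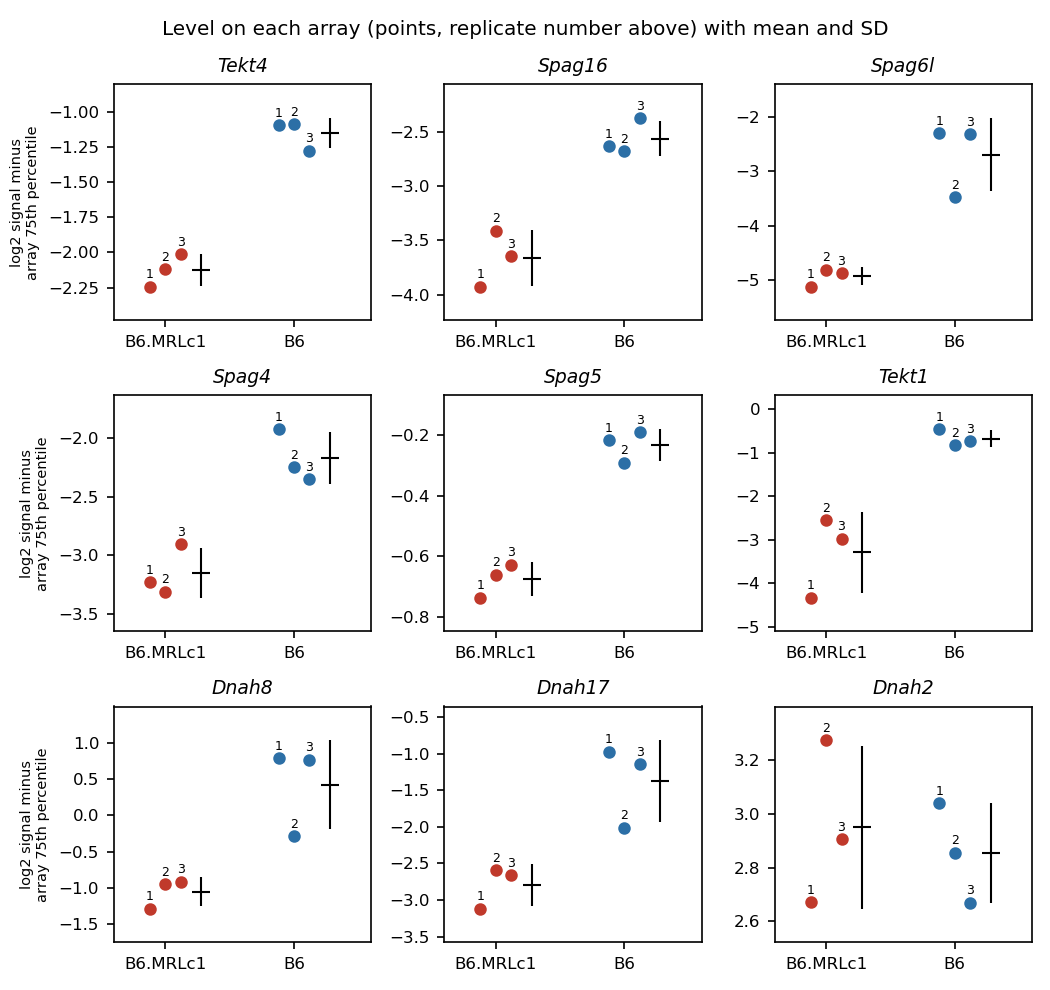
Each panel shows 1 gene: points are single arrays with the replicate number above, crosses are the mean with its SD (n = 3 per strain), and the y axis is log2 signal minus the array's 75th percentile. Tekt4, Spag16, Spag6l, Spag4 and Spag5 were called lower in B6.MRLc1, and Tekt1, Dnah8, Dnah17 and Dnah2 were not called, with Dnah2 shown as a gene whose groups overlap.

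The bases before the start site were read for the genes that carry the strain difference and for members of the families that share a sequence there. Sequences are from RefSeq for GRCm38.p6, 120 bases that end at the base before the start site, and 35 of the 42 genes had an entry. Dnah3, Rsph1, Rsph10b2, Rsph4a, Spag1, Spag11a and Spag11b had none. Both strands of 300 bases, 250 before to 50 after the start, were searched for the X-box bound by RFX factors, spelled GTNNCC, then any 2 bases, then GGNAAC. They were also searched for the cyclic AMP response element TGACGTCA, bound by CREM and its relatives. A shorter X-box arm, GTTGC, and a facing pair of it, GTTGC, then any 3 bases, then GCAAC, were chosen after the sequences were seen. Capitals mark each GTTGC or its reverse complement GCAAC, and TGACGTCA. Tekt2 had 3 entries and Tekt1 had 2, and 1 of each is printed. Another Tekt2 entry holds the facing pair at -71, and Rsph3b, not printed, holds it at base 10 after the start. These 6 lines show genes with the facing pair, whose first base lies between -57 and -24 from the start site of the entry printed.
Tekt4 (chr17:25471470-25471589, + strand): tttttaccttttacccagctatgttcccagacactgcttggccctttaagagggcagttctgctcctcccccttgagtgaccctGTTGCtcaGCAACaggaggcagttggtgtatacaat
Tekt2 (chr4:126325689-126325808, - strand): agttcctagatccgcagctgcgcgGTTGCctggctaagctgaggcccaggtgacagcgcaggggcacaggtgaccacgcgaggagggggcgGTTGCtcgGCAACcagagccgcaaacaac
Dnah6 (chr6:73221632-73221751, - strand): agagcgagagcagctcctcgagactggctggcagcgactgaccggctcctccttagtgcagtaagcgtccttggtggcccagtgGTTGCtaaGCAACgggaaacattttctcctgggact
Dnah7a (chr1:53706785-53706904, - strand): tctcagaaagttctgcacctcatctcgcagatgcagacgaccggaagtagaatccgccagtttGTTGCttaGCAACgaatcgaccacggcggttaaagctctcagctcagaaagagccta
Dnah7b (chr1:46066733-46066852, + strand): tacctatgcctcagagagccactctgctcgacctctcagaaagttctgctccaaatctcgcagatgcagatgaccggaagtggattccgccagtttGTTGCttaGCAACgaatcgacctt
Dnaic2 (chr11:114727299-114727418, + strand): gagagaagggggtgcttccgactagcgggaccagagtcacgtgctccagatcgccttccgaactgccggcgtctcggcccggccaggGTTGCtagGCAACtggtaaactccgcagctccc

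The facing pair was present in 7 of 35 genes with an entry (Dnah6, Dnah7a, Dnah7b, Dnaic2, Rsph3b, Tekt2 and Tekt4) and in 0.252% of 27025 genes with a promoter entry. The arm GTTGC alone, which lies inside the pair and can lie inside an X-box, was present in 26 of 35 genes and in 38.6% of all genes. Dnah7a and Dnah7b are closely related copies, so their shared pair is not 2 separate cases. Of the 7 genes with the pair, Tekt4 was called lower in B6.MRLc1 testes and the other six were not, at -0.67 for Dnah6, -0.41 for Tekt2 and between -0.08 and 0.21 for Dnah7a, Dnah7b, Dnaic2 and Rsph3b. The next lines show a tektin with a large uncalled difference and 3 of the called genes.
Tekt1 (chr11:72361883-72362002, - strand): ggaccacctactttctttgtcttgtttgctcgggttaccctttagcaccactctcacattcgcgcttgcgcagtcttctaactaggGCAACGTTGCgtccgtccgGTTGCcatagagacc
Spag16 (chr1:69826850-69826969, + strand): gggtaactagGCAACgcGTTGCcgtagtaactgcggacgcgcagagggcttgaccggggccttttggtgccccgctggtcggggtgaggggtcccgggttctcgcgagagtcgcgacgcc
Spag6l (chr16:16829364-16829483, - strand): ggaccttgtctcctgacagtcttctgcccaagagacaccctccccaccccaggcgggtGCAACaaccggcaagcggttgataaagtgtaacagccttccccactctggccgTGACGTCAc
Spag4 (chr2:156065093-156065212, + strand): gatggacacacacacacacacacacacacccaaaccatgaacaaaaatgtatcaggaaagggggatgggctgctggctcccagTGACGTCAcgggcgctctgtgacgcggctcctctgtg

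In Tekt1 and Spag16 the arms face outwards, as GCAAC before GTTGC, and Spag6l and Spag4 hold TGACGTCA starting at -9 and -37 from the start site. That element was present in 3 of 35 genes (Dnah6 is the other) and in 2.03% of all genes. Its first 5 bases, TGACG, which it contains, were present in 8 of 35 genes and in 23.0% of all genes. The motif GTAAACA, of the kind bound by FOXJ1, the master regulator of motile cilia, was present in Dnah17 and Tekt3, 2 of 35, and in 4.05% of all genes. The X-box in the 1 spelling searched here was present in 3 of 35 genes and in 1.49% of all genes. Apart from the arm and the facing pair, other spellings or spacings of the X-box were not searched. All 3 genes with this spelling were called lower, but how many of the 403 genes with the motif were called was not counted. A link between the motif and the calls was not tested. The X-box matches of the 3 genes, 14 bases long, start at -160 in Tekt4, at -186 in Spag5 and at base 35 after the start in Spag6l. They are printed on the strand of the motif, with the bases that the motif fixes in capitals.
Tekt4 X-box (chr17:25471430-25471443, + strand): GTgtCCtgGGaAAC
Spag5 X-box (chr11:78301405-78301418, + strand): GTaaCCggGGgAAC
Spag6l X-box (chr16:16829316-16829329, + strand): GTctCCagGGcAAC

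Outer arm dynein heavy chains are the large motor subunits of the outer arm. Of 5 genes, 4 were tested and none was called. Of the 4, 3 were lower at an unadjusted p under 0.05, beside 11.3% of all genes tested. Their median difference was -0.99, against 0.01 over all genes tested. Dnah8, an outer arm motor of sperm tails, had -1.28, -0.95 and -0.91 on the B6.MRLc1 arrays, against 0.78, -0.29 and 0.76 on the B6 arrays. The difference of -1.47 (SE 0.313, adjusted p = 0.0774) did not pass, with B6 array 2 far below the other B6 arrays. The other 2 tested probes of Dnah8 gave -1.24 and -2.002 and were well above background on no B6.MRLc1 array. Dnah17, also a motor of the sperm outer arm, had -3.12, -2.59 and -2.66 on the B6.MRLc1 arrays, against -0.97, -2.01 and -1.14 on the B6 arrays. Its difference was -1.41 (SE 0.304, adjusted p = 0.0791), with the same low B6 array 2. The other Dnah17 probes, above background on no array, gave 0.78, -0.21 and -0.15.

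Dnah11, known for airway cilia, had -4.88, -5.24 and -5.04 on the B6.MRLc1 arrays, against -4.56, -4.42 and -4.51 on the B6 arrays (-0.56, SE 0.104, adjusted p = 0.0580). These are dim signals, above background on 1 of 3 B6.MRLc1 arrays. Dnah9, a further outer arm heavy chain, had -1.002, -0.62 and -1.21 on the B6.MRLc1 arrays, against -1.37, -0.97 and -1.22 on the B6 arrays. Its groups overlapped (0.24, adjusted p = 0.492), and its other probe ran the opposite way at -0.47. Dnah5 was not tested: its probe was above background on no array.

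Inner arm heavy chains, which shape the bend, held 9 genes, of which 8 were tested and none was called, with a median of -0.29. Of the 8, 3 were lower at an unadjusted p under 0.05, beside 11.3% of all genes tested. Dnah10, part of the double-headed inner arm, had -3.72, -3.88 and -4.06 on the B6.MRLc1 arrays, against -3.56, -3.35 and -3.23 on the B6 arrays (-0.51, SE 0.124, adjusted p = 0.105). Dnah6, a single-headed inner arm motor, had -3.34, -2.67 and -3.12 on the B6.MRLc1 arrays, against -2.33, -2.41 and -2.38 on the B6 arrays (-0.67, SE 0.174, adjusted p = 0.114). In neither gene did the groups overlap. Other probes of both genes, above background on no array, gave 0.78 and -0.185 for Dnah10 and 0.49 for Dnah6. Dnah1, whose loss in people gives short or absent sperm tails, had -5.54, -6.49 and -5.75 on the B6.MRLc1 arrays, against -1.46, -4.81 and -4.73 on the B6 arrays. B6 array 1 stood far above the other B6 arrays. The difference was -2.26 (SE 0.949, adjusted p = 0.263) with all arrays and -1.16 (adjusted p = 0.201) without B6 array 1. Its signal did not clear background on any B6.MRLc1 array, and the level there was at least 2.41-fold lower with all arrays and at least 1.12-fold lower without B6 array 1.

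Dnah12 had -5.19, -5.05 and -5.62 on the B6.MRLc1 arrays, against -4.09, -4.82 and -4.71 on the B6 arrays (-0.75, SE 0.242, adjusted p = 0.171). The tested probe was above background on no B6.MRLc1 array and another probe on 1, and after normexp background correction the difference was -0.03. Dnah7a and Dnah7b, the related copies above, had differences of 0.21 (adjusted p = 0.473) and -0.08 (adjusted p = 0.712). Dnah7a had -1.87, -1.90 and -1.997 on the B6.MRLc1 arrays, against -2.43, -2.11 and -1.86 on the B6 arrays. Its 4 probes gave 0.21, 0.33, -0.38 and -0.18. Dnah7b had 1.25, 1.35 and 1.21 on the B6.MRLc1 arrays, against 1.31, 1.19 and 1.55 on the B6 arrays, and its 3 probes gave -0.08, 0.27 and 0.28. The groups overlapped in both copies, the probes of each disagreed in sign, and whether each probe binds only its own copy was not tested.

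Dnah2, the other motor of the double-headed arm, had 2.67, 3.27 and 2.90 on the B6.MRLc1 arrays, against 3.04, 2.85 and 2.67 on the B6 arrays (0.10, adjusted p = 0.791). Dnah14 had -4.75, -4.21 and -4.14 on the B6.MRLc1 arrays, against -4.16, -4.33 and -4.45 on the B6 arrays (-0.06, adjusted p = 0.887). Neither gene separated the strains. Dnah3 had no probe above background and was not tested.

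Intermediate and light chains, which anchor and regulate the motors, held 5 tested genes, none called, with a median of -0.05. Of the 5, 2 were lower at an unadjusted p under 0.05, beside 11.3% of all genes tested. Dnali1, a light intermediate chain of the inner arm, had -6.46, -3.98 and -5.37 on the B6.MRLc1 arrays, against -2.69, -3.07 and -2.88 on the B6 arrays. The difference was -2.39 (SE 0.606, adjusted p = 0.110). The B6.MRLc1 arrays were all lower but spread widely, and 1 of them was above background. Dnaic1, an outer arm intermediate chain, had -1.67, -1.91 and -1.79 on the B6.MRLc1 arrays, against -1.44, -1.65 and -1.16 on the B6 arrays (-0.37, SE 0.139, adjusted p = 0.217). Its partner Dnaic2 differed by -0.05 (adjusted p = 0.833), and the outer arm light chain Dnal1 by 0.13 (adjusted p = 0.532). Dnal4, a further light chain, had 1.36, 1.31 and 1.33 on the B6.MRLc1 arrays, against 1.29, 1.31 and 1.42 on the B6 arrays (-0.01, adjusted p = 0.965).

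Radial spoke genes ran unevenly, with 6 tested, none called and a median of -0.21. Of the 6, 3 were lower at an unadjusted p under 0.05, beside 11.3% of all genes tested. Rsph9, a protein of the spoke head, had -0.44, -0.24 and -0.35 on the B6.MRLc1 arrays, against 0.19, 0.08 and 0.02 on the B6 arrays. The difference of -0.44 (SE 0.0786, adjusted p = 0.0525) was just above the threshold and the groups did not overlap. Rsph6a, a spoke head protein of sperm, had -4.89, -6.42 and -5.76 on the B6.MRLc1 arrays, against -3.59, -4.20 and -3.89 on the B6 arrays (-1.80, SE 0.399, adjusted p = 0.0845). Its signal did not clear background on any B6.MRLc1 array, and the level there was at least 2.06-fold lower with all arrays. With 1 array left out this bound ran from 1.81 to 2.41. Rsph1, a spoke head protein, differed by -0.35 (adjusted p = 0.188), with -0.41 at its other probe.

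The spoke head gene Rsph4a differed by 0.18 (adjusted p = 0.439). The paired stalk genes Rsph3a and Rsph3b showed no separation of the strains. Rsph3b had 3.55, 3.70 and 3.60 on the B6.MRLc1 arrays, against 3.65, 3.58 and 3.69 on the B6 arrays (adjusted p = 0.854). Rsph3a had 0.07, 0.20 and 0.20 on the B6.MRLc1 arrays, against 0.30, 0.13 and 0.22 on the B6 arrays (-0.06, adjusted p = 0.663). Its other probes gave -0.42 and 0.34, and since these copies are alike, probe binding to both was not tested. Rsph10b2, named for a spoke protein but in no role list used here, had -4.49, -4.38 and -4.37 on the B6.MRLc1 arrays, against -4.17, -4.20 and -4.08 on the B6 arrays. Its difference was -0.27 (SE 0.0637, adjusted p = 0.101).

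Among the tektins 3 of 5 genes were tested, 1 was called, and the median was -0.97. Tekt1, a tektin of the doublet wall, had -4.33, -2.54 and -2.98 on the B6.MRLc1 arrays, against -0.46, -0.82 and -0.74 on the B6 arrays. The difference of -2.61 (SE 0.460, adjusted p = 0.0521) was the largest of the 35 genes, and a further probe gave -2.53. It missed the threshold beside a wide spread on the B6.MRLc1 arrays, of which array 1 was lowest, and it was called in 6 of 17 alternative settings. Tekt2, whose loss in mice disturbs the dynein inner arms, had -1.08, -2.24 and -1.68 on the B6.MRLc1 arrays, against -1.12, -1.32 and -1.32 on the B6 arrays (-0.41, adjusted p = 0.465). Here B6.MRLc1 array 1 was the highest of all 6, the opposite of its place for Tekt1. Tekt3 and Tekt5 were not tested.

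The Spag genes outside the axoneme were mixed. Besides Spag4 and Spag5, 4 were tested and none was called. Spag9, a scaffold protein of kinase signalling, was the only gene of the 35 with all 3 B6.MRLc1 arrays above every B6 array, at 3.61, 3.61 and 3.63 on the B6.MRLc1 arrays against 3.50, 3.55 and 3.50 on the B6 arrays (0.10, adjusted p = 0.319). Spag7 differed by 0.10 (adjusted p = 0.404). Spag1, a dynein assembly factor despite its name, had -0.69, -0.69 and -0.70 on the B6.MRLc1 arrays, against -0.69, -0.71 and -0.79 on the B6 arrays (0.03, adjusted p = 0.754). Spag11a, a defensin-like gene of the epididymis, had -5.25, -5.33 and -5.08 on the B6.MRLc1 arrays, against -4.38, -1.94 and -4.93 on the B6 arrays. B6 array 2 alone was high, and the difference was -1.47 (adjusted p = 0.350) with it and -0.57 without it. The remaining central apparatus gene Spag17, and Spag8 and Spag11b, were not tested.

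**Figure D2:**
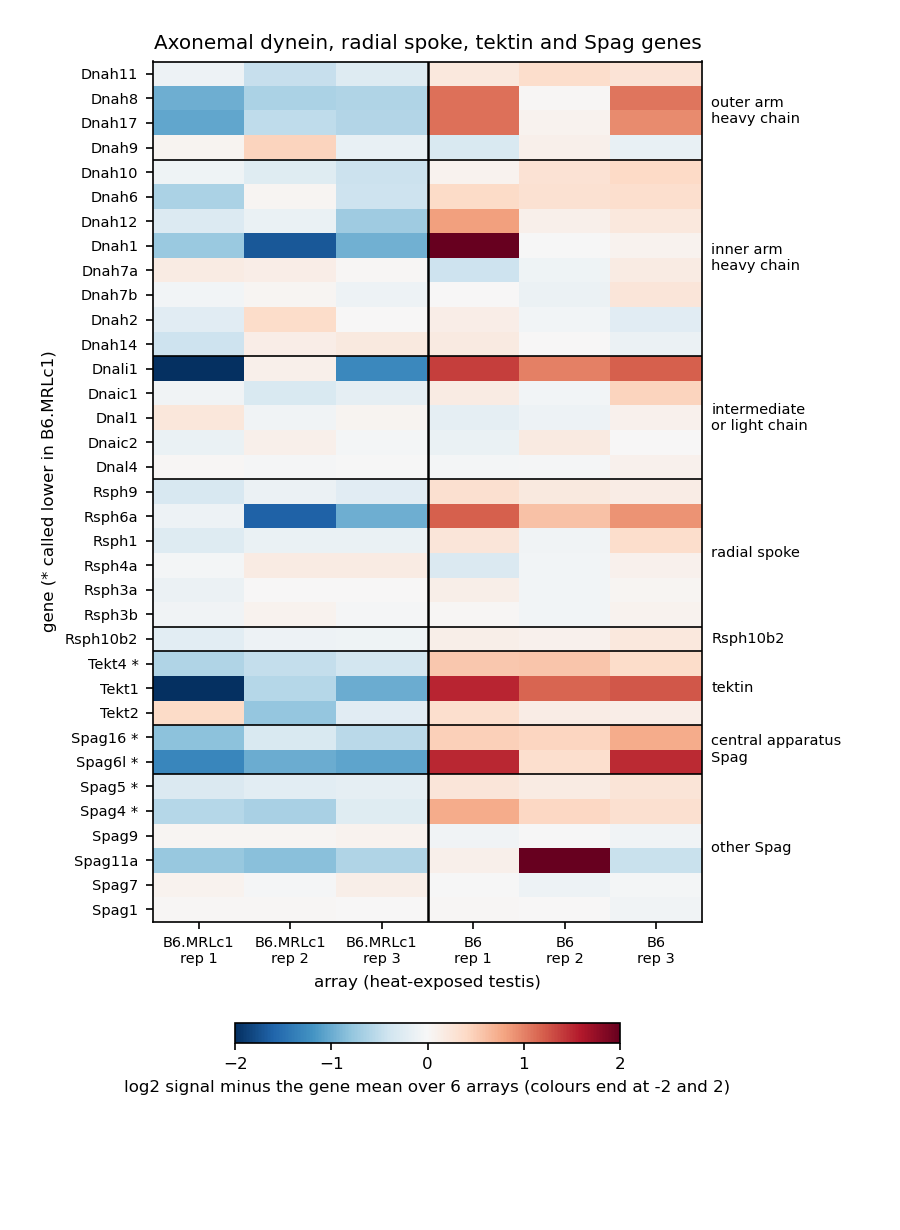
Rows are the 35 tested genes grouped by role and columns the 6 arrays, B6.MRLc1 left and B6 right of the black line, and colour is log2 signal minus the gene's mean over the arrays. Stars mark the 5 called genes. Blue cells of differing depth for uncalled genes such as Tekt1, Dnali1, Rsph6a, Dnah8 and Dnah17 and for the starred Tekt4, Spag16, Spag6l and Spag4 stand beside near-white rows for Dnal4, Rsph3b and Spag1. The starred row of Spag5 is pale, and the darkest red cells of Dnah1 and Spag11a are single B6 arrays.

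Across the 35 tested genes 27 had a difference below 0, against 46.9% of all genes tested. In 20 genes all 3 B6.MRLc1 arrays lay below every B6 array, which held for 14.2% of all genes, and in 1 gene all lay above, which held for 14.3%. At an unadjusted p under 0.05, 18 were lower (11.3% of all genes) and none was higher (8.77%). The median difference was -0.42, with quartiles of -1.04 and -0.02 and a range of -2.61 to 0.24. Of the 35 genes 10 were above background on all 3 B6 arrays but on fewer than 3 B6.MRLc1 arrays, and 3 of these on none, so that their B6 signal alone passed them through the filter. They make up 9 of the 20 genes whose groups did not overlap and 7 of the 18 lower at an unadjusted p under 0.05. Without any filter, all 42 genes had a median of -0.37, 30 were below 0 (42.1% of all genes) and none was called, beside 0.153% of all genes. Among the 25 genes above background on all 6 arrays the median was -0.08, 17 were below 0 (43.8% of all genes) and 5 were called lower in a fit of such genes alone, where 2.42% of all genes were called. These 5 were Tekt4, Spag16, Spag5, Spag4 and Rsph9.

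Of the 7 genes not tested, Spag17 was above background on 1 B6.MRLc1 array, Spag8 and Tekt5 on 1 B6 array each, and the other four on none. Dnah5 averaged -7.07 on the B6.MRLc1 arrays and -7.83 on the B6 arrays, and Dnah3 averaged -7.26 on the B6.MRLc1 arrays and -7.79 on the B6 arrays. Tekt3 and Spag17 were likewise higher on the B6.MRLc1 arrays (-6.63 against -7.24, and -6.11 against -7.12 on the B6 arrays). In Spag17 B6.MRLc1 array 3 alone was high (-4.70, against -6.59 and -7.05 on arrays 1 and 2), and its other probe ran the opposite way at -0.90. Tekt5 (-6.67 against -5.62 on the B6 arrays), Spag8 (-5.74 against -5.34) and Spag11b (-6.59 against -6.22) were lower on the B6.MRLc1 arrays. The additive error of the B6.MRLc1 arrays, the scanner software's estimate of noise at low signal, ran from 3.38 to 5.68 intensity units against 2.66 to 3.14 on the B6 arrays. After normexp background correction, which adds an offset of 50 intensity units, the median over the 35 genes was -0.11, Spag6l had -0.93 and Dnah14 had 0.19.

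**Figure D3:**
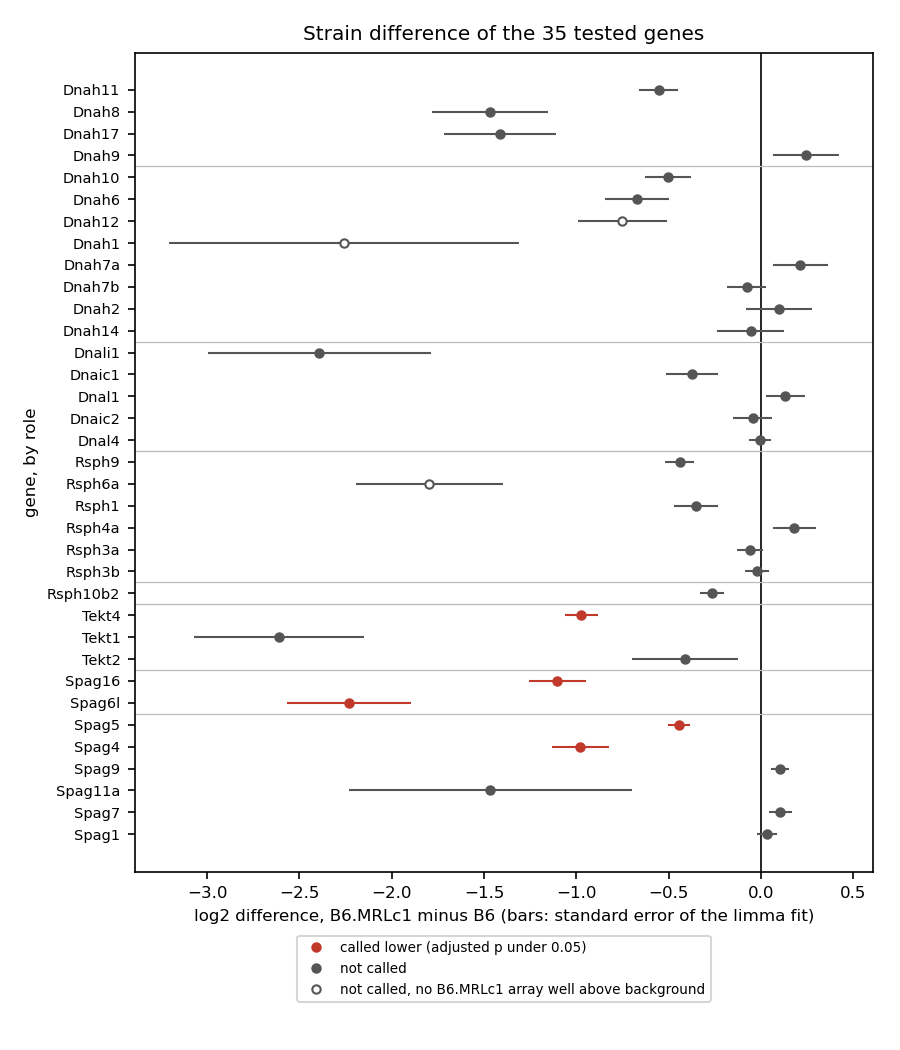
Points are the log2 differences B6.MRLc1 minus B6 of the 35 tested genes in order of role, bars are standard errors of the limma fit, red marks genes called lower, and open circles mark genes with no B6.MRLc1 array above background at the tested probe. Most points lie left of 0, from -2.61 for Tekt1 to 0.24 for Dnah9, and several large differences carry wide bars.

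Other genes of the axoneme were listed by function and counted in the same fit. Among 8 partners of the radial spoke 3 fell, none rose and the median was -0.71: Cfap206 fell by at least 3.92-fold (adjusted p = 0.0267) and Dnajb13, a spoke protein of sperm, by at least 1.34-fold (adjusted p = 0.0280). Both were above background on no B6.MRLc1 array, so their B6 signal alone passed them through the filter. With 1 array left out the bounds ran from 3.28 to 4.57 for Cfap206 and from 1.18 to 1.56 for Dnajb13. The third, Wdr66, fell by 0.84 (adjusted p = 0.0484). Among 10 central apparatus genes besides the Spag members 2 fell, Cfap65 by at least 2.09-fold (adjusted p = 0.0296) and Cfap70 by less (-0.98, adjusted p = 0.0370). Cfap65 was above background on no B6.MRLc1 array, so its B6 signal alone passed it through the filter. Its bound ran from 1.84 to 2.57 with 1 array left out. With dim values raised to the array's lowest signal that cleared background, 1 gene of the central apparatus list was called. In the same list Spef1, a protein that bundles microtubules, rose by 0.38 (adjusted p = 0.0445), so the list did not move as a block. Wdr66 and Spef1 are named because the counts are small, after their values were seen.

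Of 10 genes of the nexin link and its ruler, which hold doublets together and space the arms, 2 fell: Ccdc65 (-1.26, adjusted p = 0.0193) and Fbxl13 (-1.12, adjusted p = 0.0267). Of 5 docking genes, which seat the outer arm, 1 fell, Armc4, by at least 2.26-fold (adjusted p = 0.0374). Armc4 was above background on no B6.MRLc1 array, so its B6 signal alone passed it through the filter. Its bound ran from 1.98 to 2.63 with 1 array left out. With dim values raised to the array's lowest signal that cleared background, no docking gene was called. Of 9 dynein assembly factors, which fold the arms in the cytoplasm, 2 fell, Dnaaf3 (-0.95, adjusted p = 0.0192) and Zmynd10 (-2.44, adjusted p = 0.0363). Of 14 genes for proteins inside the doublets 2 fell, Cfap45 (-1.56, adjusted p = 0.0204) and Spaca9 (-1.84, adjusted p = 0.0423). In these 4 lists no gene rose, and their medians ran from -0.62 to -0.18. With 1 array left out at a time the called genes numbered 0 to 2 in each of the central apparatus, nexin link, assembly and doublet lists, and 0 to 1 in the docking and spoke partner lists. In all of these lists none was called with the replicate block or without the filter on dim probes. Under the remaining settings 0 to 5 spoke partners were called.

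Cytoplasmic dyneins, which carry cargo, and intraflagellar transport genes were counted in the same way. None of 14 cytoplasmic dynein genes was called, their median was 0.07, and the smallest p belonged to Dync1i1 (0.48, adjusted p = 0.0873) and Dynlrb2 (-1.22, adjusted p = 0.163). None of 19 intraflagellar transport genes was called, with Ift22 at -0.38 (adjusted p = 0.108) and Ift52 at -0.21 (adjusted p = 0.152), and their range was -0.38 to 0.19. At an unadjusted p under 0.05, 1 cytoplasmic dynein gene was lower and 2 higher, and 2 transport genes were lower and 1 higher. Over all genes tested 11.3% were lower and 8.77% higher at that threshold. None of 8 regulators of cilium or spermatid transcription was called (2 lower and 1 higher at an unadjusted p under 0.05), among them Crem at -0.34 (adjusted p = 0.156) and Mybl1 at 0.34 (adjusted p = 0.228). Of 9 genes of the outer dense fibres and fibrous sheath, which wrap the axoneme of the sperm tail, 2 fell, Odf4 (-2.88, adjusted p = 0.0434) and Odf2 (-0.92, adjusted p = 0.0487). All 9 of them were below 0, with a median of -1.88, and 0 to 5 were called with 1 array left out. The differences between these lists and the dynein, spoke, tektin and Spag genes were not tested.

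Germ cell stage markers were read on the same arrays. Of 8 tested markers of elongating spermatids all were below 0 and 1, Cylc2, fell (0 to 3 with 1 array left out and up to 7 under other settings). Cylc2 was above background on no B6.MRLc1 array, so its B6 signal alone passed it through the filter, and it was at least 2.89-fold lower. With 1 array left out this bound ran from 2.54 to 3.38. All 8 elongating spermatid markers were lower at an unadjusted p under 0.05 (11.3% of all genes), with groups that did not overlap (14.2% of all genes). The score of the list, its median over genes of log2 signal minus the gene's mean, was -1.56, -2.11 and -0.44 on the B6.MRLc1 arrays, against 2.18, 1.28 and 0.90 on the B6 arrays. Between 5 and 7 of 9 markers were above background on the B6.MRLc1 arrays, against 8 on each B6 array. Of 7 tested round spermatid markers 5 were below 0 and 3 fell (0 to 3 with 1 array left out), and 4 were lower at an unadjusted p under 0.05. The score of this list was -0.51, -0.50 and -0.35 on the B6.MRLc1 arrays, against 0.60, 0.30 and 0.46 on the B6 arrays. The score of the 35 genes was -0.21, -0.12 and -0.19 on the B6.MRLc1 arrays, against 0.18, 0.08 and 0.20 on the B6 arrays. The medians of spermatocyte markers (-0.03, none of 9 called), spermatogonial markers (0.06, none of 8) and Sertoli cell markers (0.13, none of 8) were smaller in size. At an unadjusted p under 0.05, 2 spermatocyte markers were lower, no spermatogonial marker passed and 2 Sertoli cell markers were higher. In RNA of whole testis, fewer cells of a type and less RNA per cell cannot be told apart, and the part of the spermatid markers in the differences above was not tested.

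**Figure D4:**
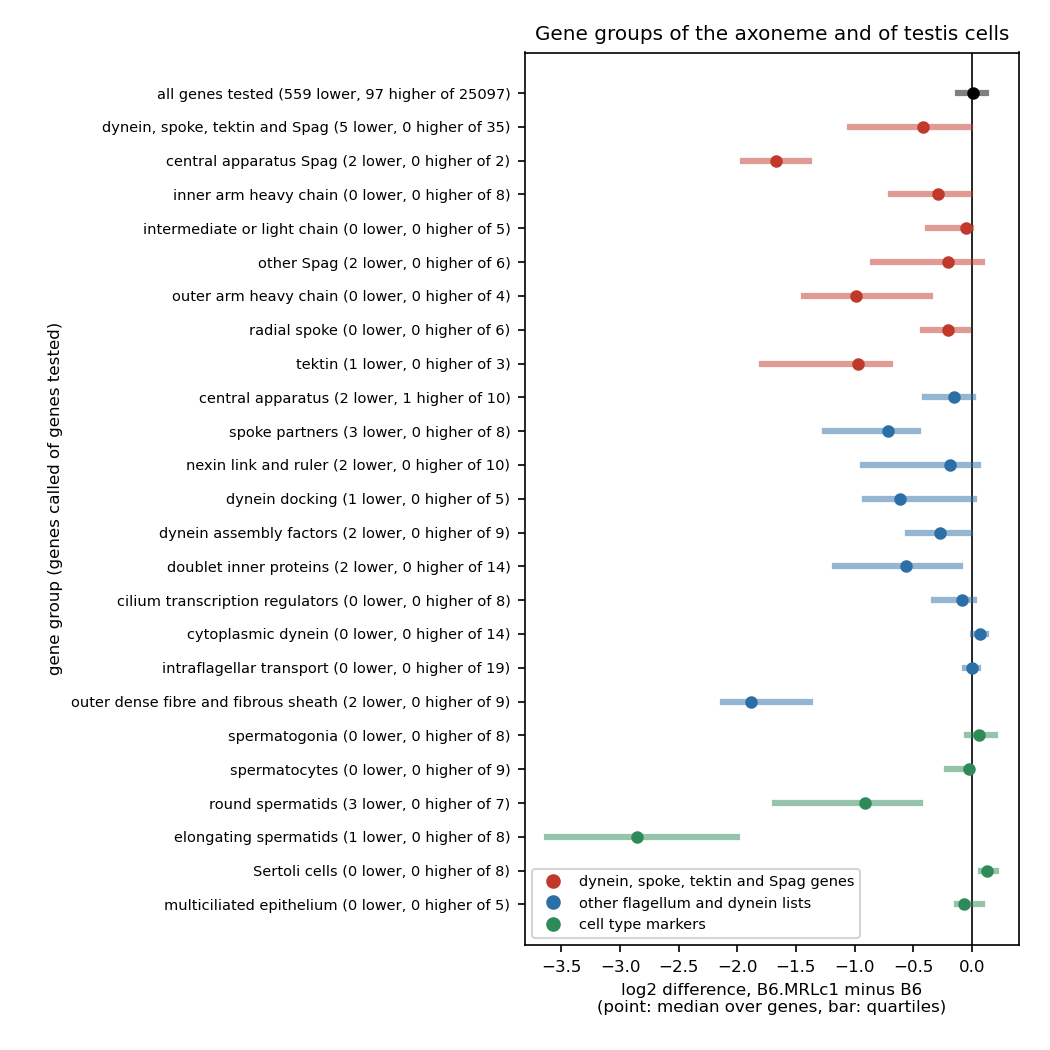
Points are medians over the tested genes of each list of the log2 difference B6.MRLc1 minus B6, bars are quartiles, and the labels count genes called lower and higher. Tektins, outer arm heavy chains and spoke partners lie between -0.99 and -0.71, elongating spermatid markers at -2.86, and cytoplasmic dyneins and intraflagellar transport genes near 0.

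Cells other than germ cells also use these genes. Of 6 markers of multiciliated epithelium, 4 to 5 were above background on the B6.MRLc1 arrays and 4 to 5 on the B6 arrays, and the 5 tested had a median of -0.06 with none called (1 lower at an unadjusted p under 0.05). Their score was 0.08, -0.01 and -0.03 on the B6.MRLc1 arrays, against -0.08, -0.02 and 0.03 on the B6 arrays. Of 8 epididymis markers 1 was above background on each of the 6 arrays. The 4 tested adipocyte markers had a median of 1.06 and none was called. Of the 4, 3 were higher at an unadjusted p under 0.05, beside 8.77% of all genes tested. The adipocyte score was -0.08, 1.02 and 0.53 on the B6.MRLc1 arrays, against -1.12, -0.31 and -0.17 on the B6 arrays. Their part in the results was not tested.

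Positions of the tested probes, in mm9 (NCBI37) as the array annotation gives them, put the called genes on 5 chromosomes. Tekt4 was probed at chr17:25613464-25613523, Spag5 at chr11:78135655-78135714, Spag4 at chr2:155894886-155894945, Spag6l at chr16:16753406-16753465 and Spag16 at chr1:70771373-70771432. Exon and untranslated region annotation was not analysed here. Besides Spag16, chromosome 1 holds Dnah7b (chr1:46430286-46430345), Dnah7a (chr1:53616194-53618773) and Dnah14 (chr1:183693995-183694054). Of these 4 genes Spag16 was called. Where the ends of the congenic segment, given in cM, lie on this map was not analysed here.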

How the data were processed

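Total RNA of 6 heat-exposed testes was labelled with Cy3 and hybridised to one-colour Agilent arrays, per the labels' protocols. The deposited scanner tables hold linear intensity per spot, background-subtracted per the file headers and unscaled across arrays, and flags (score 0 or 1) for spots well above background, saturated or outlying, as deposited. Feature Extraction is given as 10.7.3.1 in the file headers and as 9.5.3 in the submitters' processing notes. The authors' deposited table of the series holds log2 values: at least 99.9% lay within 0.05 of the log2 scaled signal centred on the probe's median over arrays, and its column medians were 0.00474, 0.00986 and 0.0161 for B6.MRLc1 arrays 1 to 3 and -0.00297, -0.00405 and 0.0144 for B6 arrays 1 to 3. No source used here says how it was centred.

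Control and outlier spots were dropped, signals were divided by the array's 75th percentile and put on the log2 scale, and spots of a probe were averaged. The filter asked for values on 4 or more arrays and for over 0.5 of a probe's spots well above background on 3 or more of 6, which left 36626 of 55681 probes. The kept probe with the highest mean stood for its gene. No spot was saturated, and the number of arrays limits the precision. Names came from the RefSeq accession for 27235 probes, a current symbol for 3581, a synonym for 3 by accession and 563 by symbol and the file alone for 24299. limma 3.58.1 (R 4.3.3, lmFit and eBayes) compared the strains, with Benjamini-Hochberg adjustment over 25097 genes and calls at an adjusted p under 0.05. Where no probe of a gene was above background on any array of a strain, the fold is a lower bound. It sets the bright strain's mean against the dim strain's mean after each dim value was raised to at least the array's lowest signal that cleared background. The adjusted p printed with a bound is from the fit of the values as they were, not raised. A bound is a ratio of means and takes no account of the spread between arrays. Alternatives were background correction, scaling, filters, probes, outliers, the authors' table, the variance model, array weights, the replicate block and leaving out each array.

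The genes and lists were chosen with earlier results of these data known. Arrays are given for genes that were called and for the 2 smallest p and the largest p of each role. They are also given where kept probes disagreed by sign or by over 1 on the log2 scale, or where only a bound was had. Probes that failed the filter had no part in this rule. Dnah2, Dnah17, Spag9 and Spag11a were added after their values were seen. Of other lists at most the 2 smallest p are named unless stated.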

Additional observations from a re-analysis of the deposited data

How the results depend on the processing

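With 5 genes called lower in the fit above, 9 were called after normexp background correction, 10 with a variance trend and 14 with array weights, against none without the filter on dim probes. Under these settings the calls among all genes numbered 867 after normexp, 53 without the filter, 1187 with the trend and 4068 with array weights, where B6 array 2 had the highest weight (7.99). Leaving out 1 array at a time gave 0 to 3 calls among the 35 genes and 47 to 471 among all genes. The other 7 settings gave 4 to 7 calls, and no gene was called higher under any of the 18. The median difference was -0.114 after normexp, -0.0777 over genes above background on all 6 arrays and -0.472 to -0.371 with 1 array left out. Deviations from the strain mean correlated at -0.0435, 0.17 and 0.089 between same-numbered arrays 1, 2 and 3. Arrays 2 and 3 of each strain correlated best with the same number in the other strain, and arrays 1 did not. These few weak correlations cannot decide whether the numbers pair the arrays. With the replicate block 0 of the 35 genes and 24 of all genes were called.

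The 5 called genes kept their sign under all 18 settings, except that Spag6l could not be tested in 1, over genes above background on all 6 arrays. Genes with differences near 0 changed sign, none of them called. Dnah14 was at 0.19 after normexp, 0.0319 with a floor on dim values, 0.137 in the authors' deposited table and 0.022 with array weights, and between -0.168 and 0.137 with 1 array left out. Dnah7a was at -0.00457, Dnah7b at 0.158 and Dnah9 at -0.114 with the mean of all kept probes. With array weights Dnah7b was at 0.0483, Dnal4 at 0.0177, Rsph3a at 0.0257 and Rsph3b at 0.0306. Dnal4 was at 0.00491 after normexp and 0.00868 with array median scaling. With 1 array left out Dnah7b ran from -0.158 to 0.0214, Dnal4 from -0.0292 to 0.0329 and Rsph3b from -0.0648 to 0.00635. The cause of these changes was not tested. Dim signals limit Dnah1, Dnah12 and Rsph6a, above background on no B6.MRLc1 array at the tested probe, and Dnali1, Dnah11 and Spag11a, above on 1.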
